A study of Rattus norvegicus with 47 samples.

Results

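The kidney cortex of rats given lithium together with amiloride for 28 days was compared with that of rats given lithium alone for the same time. The lithium-amiloride (LiAM) group has 5 libraries and the lithium (Li) group 6, which makes 11 of the 47 RNA sequencing libraries of the study, and all libraries of both groups in the table of gene counts at 28 days were taken. LiAM rats were male Wistar rats that received lithium carbonate in their chow, given as 60 mM in the sample labels, and 0.2 mM amiloride in their drinking water from the first day of lithium. Li rats received the same lithium chow and no amiloride, and both lithium groups had free access to a salt block according to the study's methods. For the lithium alone group, these methods give a lower lithium content of the food in the first week. A Control group of 6 male Wistar rats on plain chow was measured at the same time and is given here as a level to read the others against. The question put by the comparison is which lithium-treated transcripts differ when amiloride is given with lithium from the start. Each library is a sample of whole cortex, a mixture of all its cell types, so that fewer cells of a type and less RNA per cell cannot be told apart.

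Lithium enters the principal cells of the collecting duct through the epithelial sodium channel (ENaC), a channel of the apical membrane built from the subunits encoded by Scnn1a, Scnn1b and Scnn1g. Amiloride blocks this channel. Principal cells take up sodium under the control of aldosterone and water under the control of vasopressin, which acts through its receptor Avpr2 to place the water channel Aqp2 in the apical membrane. Long lithium treatment is known for a loss of Aqp2 and an inability to concentrate the urine, and for a remodelled collecting duct in which principal cells and the acid-secreting intercalated cells change their proportions.

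The promoters of 4 genes are printed because their genes carry the main result below: the ENaC subunits Scnn1g and Scnn1b, which lie next to each other, and the pair Aqp2 and Avpr2 of the water pathway. Each is the 250 bases before the RefSeq start of the gene on the GRCr8 assembly, on the plus strand, from 5′ to 3′. Capitals mark any AGAACA or TGTTCT, the half-site of steroid receptors, and any TGACG or CGTCA, the half-site of cAMP response elements.
Scnn1g, chr1:185735975-185736224: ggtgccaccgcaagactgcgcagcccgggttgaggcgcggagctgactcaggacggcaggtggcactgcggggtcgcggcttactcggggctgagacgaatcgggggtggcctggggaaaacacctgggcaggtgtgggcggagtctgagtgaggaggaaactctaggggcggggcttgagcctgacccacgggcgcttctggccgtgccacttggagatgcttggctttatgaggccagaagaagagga
Scnn1b, chr1:185861126-185861375: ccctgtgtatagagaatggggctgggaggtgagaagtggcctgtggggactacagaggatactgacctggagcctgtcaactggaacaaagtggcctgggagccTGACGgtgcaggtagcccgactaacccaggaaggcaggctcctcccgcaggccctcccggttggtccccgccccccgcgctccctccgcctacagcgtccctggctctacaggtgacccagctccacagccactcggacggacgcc
Aqp2, chr7:132590036-132590285: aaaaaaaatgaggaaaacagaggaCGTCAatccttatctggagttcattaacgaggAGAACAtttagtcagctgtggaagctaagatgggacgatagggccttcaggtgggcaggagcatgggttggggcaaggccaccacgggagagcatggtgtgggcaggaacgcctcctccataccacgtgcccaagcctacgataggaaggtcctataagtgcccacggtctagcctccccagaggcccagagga
Avpr2, chrX:156784889-156785138: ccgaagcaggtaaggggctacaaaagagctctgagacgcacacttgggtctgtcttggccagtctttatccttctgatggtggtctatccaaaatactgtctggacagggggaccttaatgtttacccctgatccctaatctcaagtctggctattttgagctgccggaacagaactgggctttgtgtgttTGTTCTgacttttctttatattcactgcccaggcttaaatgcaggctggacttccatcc
RefSeq places no other gene between Scnn1g and Scnn1b, whose starts lie 125 kb apart. The steroid half-site stands once in the Aqp2 window, first base at -194 from the start, and once in the Avpr2 window, at -59, and these letters are in neither ENaC window. The cAMP half-site stands once in the Aqp2 window, at -226, and once in the Scnn1b window, at -146. Over all 33469 promoters of the table, 17.5% hold the steroid half-site and 18.2% the cAMP half-site in the same 250 bases. Looked up were the 8 members of the aldosterone and ENaC list below that passed in these data or belong to a fixed panel of genes. Of these, 5 had a promoter in the table (Scnn1g, Scnn1b, Fxyd4, Klk1 and Sgk1), and 0 of the 5 hold the steroid half-site there. Aqp2, Avpr2 and the cAMP half-site were chosen after the values of the genes had been seen.

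Depth was alike in both groups, 15936965 to 17246527 counts in LiAM libraries and 15040424 to 16894849 counts in Li libraries. Expression is given as counts per 1000000 (CPM), scaled between libraries, and 1 CPM stands for 12.8 to 18.8 counts. Lithium replicate 1 stands apart in its summed level of 6 adipose markers, at 341 CPM. The sum was 61.0 to 103 CPM in the other Li libraries and 79.1 to 118 CPM in LiAM libraries. In Lithium replicate 1 the adipocyte gene Fabp4 reached 93.6 CPM where no other Li or LiAM library passed 6.14 CPM. Control replicate 1 also stands apart, with 18.2% of its counts from the 13 mitochondrially encoded genes, against 31.1 to 33.0% in the other Controls. That share was 15.8 to 22.7% in LiAM libraries and 14.5 to 24.3% in Li libraries. The means of 18.1 ± 2.75% (SD, n = 5) and 19.5 ± 3.14% (SD, n = 6) could not be told apart (exact permutation test, two-sided, p = 0.45). The labelled tissue was borne out by its defining markers, with the proximal tubule list summing to 33060 to 37800 CPM in LiAM libraries and 38030 to 44110 CPM in Li libraries. Nothing in the labels names a batch or says that a replicate number links rats of different groups, and each label marks a separate sample.

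Of 14140 genes tested, 62 differed between LiAM and Li kidneys, at an adjusted p below 0.05 and a log2 fold change (log2FC, LiAM over Li) of at least 0.5 in size. This is 0.438% of the genes tested, with 48 higher in LiAM (0.339%) and 14 lower (0.099%). Without the fold change, 72 genes passed (0.509%), and 1570 (11.1%) had an unadjusted p below 0.05. In 59 of the 62 genes no LiAM library overlapped an Li library, as in 299 of all genes tested (2.11%; LiAM above in 1.3% and below in 0.813%). The median log2FC was 1.27 over the higher genes and -1.07 over the lower ones. Over the 500 most variable genes, 19.2% of the variation lay between the groups (exact permutation test over 462 splits, one-sided, p = 0.00433). Without Lithium replicate 1 the count was 64 (50 higher, 14 lower), of which 53 were among the 62. Without Control replicate 1, which is in neither group, it was 104 (86 higher, 18 lower), among them all 62. With both left out, a choice made after seeing the data, 92 genes passed (76 higher, 16 lower).

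**Figure D1:**
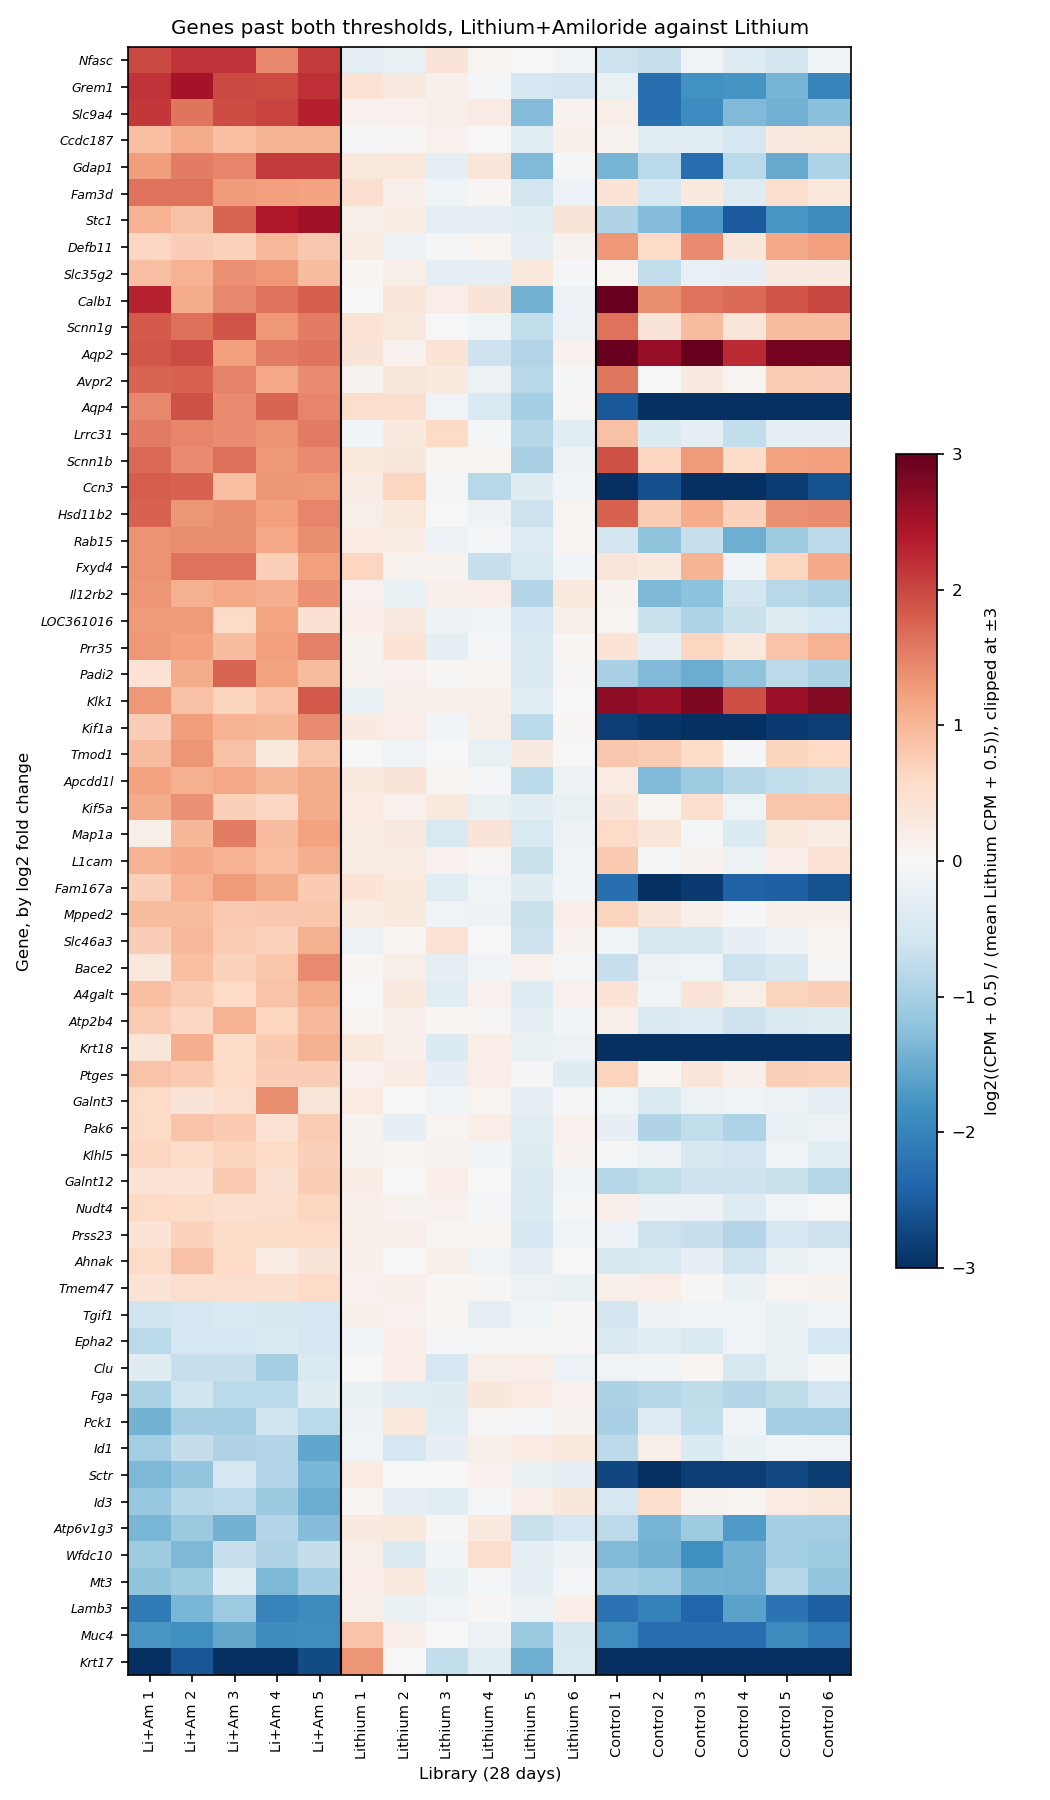
Colour gives log2 of CPM relative to the mean of the Li libraries (0.5 added to both) for 61 of the 62 genes that passed, with a row per gene and a column per 28-day library, clipped at 3 in each direction. The 5 LiAM columns are red in the upper 47 rows and blue in the lower 14, and the Control columns lie on either side of Li depending on the gene.

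The aldosterone and ENaC list had 5 of 21 tested members higher in LiAM and 0 lower, and its median log2FC was 0.41, beside -0.01 over all genes tested. Symbols, by which list members were found, came only from the authors' result tables, and those hold only genes with an adjusted p below 0.05 in some comparison of the study. Members without such a call are therefore missing from every list, and the share to read its counts against is that over the 8816 tested genes with a symbol, 0.703% called (0.544% higher, 0.159% lower). The genes that rose were the ENaC subunits Scnn1g and Scnn1b, Hsd11b2, the enzyme that inactivates corticosterone and so leaves the mineralocorticoid receptor to aldosterone, Fxyd4, a regulator of the sodium pump, and Klk1, tissue kallikrein. Scnn1g measured 44.3, 38.4, 45.8, 30.0 and 35.3 CPM in LiAM kidneys, against 7.0 to 16.3 CPM (median 11.5) in Li kidneys (log2FC 1.69 ± 0.22, adjusted p = 0.000954; the error of a log2FC is its standard error throughout). Every LiAM library lay above every Li library, and Controls spanned 15.5 to 38.2 CPM. Control replicate 1 was the highest Control, and the others were at 23.5 CPM or less. Scnn1b gave 49.9, 40.8, 48.3, 37.8 and 40.9 CPM in LiAM kidneys and 7.42 to 19 CPM (median 15.8) in Li kidneys (log2FC 1.53 ± 0.23, adjusted p = 0.00308). Controls were at 22.1 to 57.5 CPM, again with Control replicate 1 the highest and the others at 36.9 CPM or less. The lowest Li library was replicate 5 for both subunits. For Scnn1a the values were 57, 79.9, 82.2, 75.9 and 90.4 CPM in LiAM kidneys and 32.7 to 71.5 CPM (median 43.6) in Li kidneys, which overlap at Lithium replicate 4. The difference did not pass (log2FC 0.74 ± 0.18, adjusted p = 0.0787). Its adjusted p was 0.00914 without that library, 0.0336 without Control replicate 1 and 0.048 without LiAM replicate 1. It was 0.146 without Lithium replicate 1 and up to 0.244 when another library was left out. Whether Scnn1a differed less than the other subunits was not tested.

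Hsd11b2 stood at 271, 199, 210.1, 189 and 220.0 CPM in LiAM kidneys, against 50.5 to 99.6 CPM (median 82.5) in Li kidneys (log2FC 1.45 ± 0.18, adjusted p = 0.000954), and at 128 to 273 CPM (median 189.8) in Controls. Fxyd4 reached 22.3, 27.1, 27.2, 14.1 and 20.6 CPM in LiAM kidneys and 5.07 to 13.5 CPM (median 8.51) in Li kidneys (log2FC 1.40 ± 0.25, adjusted p = 0.00916). LiAM replicate 4 was the lowest of its group in Scnn1g, Scnn1b, Hsd11b2 and Fxyd4, and still above all Li libraries in each. Klk1 was at 169, 127, 109.7, 125 and 249 CPM in LiAM kidneys and 54.5 to 77.2 CPM (median 72.7) in Li kidneys (log2FC 1.18 ± 0.19, adjusted p = 0.00416). Both groups were below the Controls at 264 to 482 CPM (median 430.2). Klk1 belongs to a family of near-identical rat kallikreins, so the assignment of its reads is uncertain. Sgk1, the aldosterone-induced kinase that keeps ENaC at the membrane, measured 178, 157, 226, 395 and 337 CPM in LiAM kidneys and 118 to 259 CPM (median 126) in Li kidneys. These overlap, and the difference did not pass (log2FC 0.68 ± 0.25, adjusted p = 0.347). Nr3c2, the mineralocorticoid receptor, measured 8.43 to 11.7 CPM in LiAM kidneys and 4.33 to 10.2 CPM in Li kidneys (log2FC 0.44 ± 0.28, adjusted p = 0.549), and these ranges overlap as well.

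**Figure D2:**
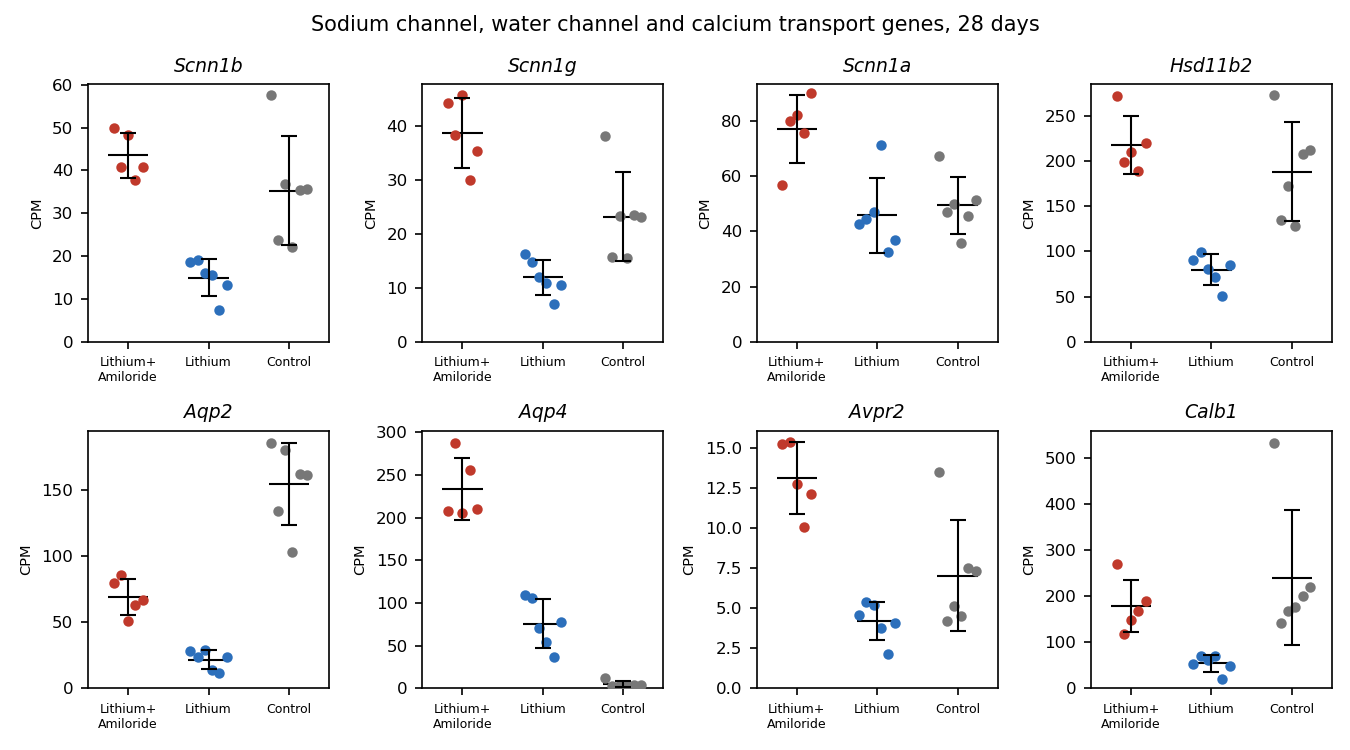
CPM of 8 genes in every 28-day library, with LiAM at the left, Lithium in the middle and Control at the right of each panel (points, libraries; bars, mean ± SD). LiAM and Li libraries do not overlap except in Scnn1a, and the Control level lies near LiAM for Hsd11b2, above both for Aqp2 and below both for Aqp4.

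Genes of the principal cell formed the largest group of calls among the 32 lists, with 8 of 15 tested members higher in LiAM, 0 lower, 14 with a positive log2FC and a median of 0.81. In 10 of the 15 the LiAM libraries all lay above the Li libraries, as in 1.3% of all genes tested. That share was not worked out for the genes with a symbol, of which 4163 of 8816 had a positive log2FC. The summed level of the list was 1429 to 1652 CPM in LiAM libraries, 716 to 1133 CPM in Li libraries and 732 to 1183 CPM in Controls. The sums join genes on opposite sides of Control: Aqp2 averaged 21.6 CPM in Li kidneys and 155 CPM in Controls, and Krt18 67.7 and 5.54 CPM. The keratins Krt8, Krt18 and Krt19 are also on the tubular injury list, so the sum does not measure the amount of principal cells. The 8 are Scnn1b, Scnn1g, Hsd11b2 and Fxyd4 from above, with the water channels Aqp2 and Aqp4, the vasopressin receptor Avpr2 and the keratin Krt18. The same 8 passed without Lithium replicate 1, as did the same 5 of the aldosterone list.

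Aqp2, the water channel that vasopressin moves to the apical membrane, measured 79.9, 85.7, 51.2, 63.4 and 66.7 CPM in LiAM kidneys and 11.5 to 28.8 CPM (median 23.7) in Li kidneys (log2FC 1.68 ± 0.21, adjusted p = 0.000954). Both groups were below the Controls, which spanned 103 to 186 CPM: the log2FC over Control was -1.16 in LiAM (adjusted p = 0.000754) and -2.84 in Li (adjusted p = 1.27e-07). Avpr2 measured 15.3, 15.4, 12.7, 10.1 and 12.1 CPM in LiAM kidneys, against 2.13 to 5.41 CPM (median 4.34) in Li kidneys (log2FC 1.64 ± 0.27, adjusted p = 0.00473) and 4.2 to 13.5 CPM in Controls. The highest Control was replicate 1, and the others were at 7.51 CPM or less. Aqp4, a water channel of the basolateral membrane, had another order of groups. It stood at 208, 287, 205, 255 and 210.0 CPM in LiAM kidneys and at 37 to 109 CPM (median 74.1) in Li kidneys (log2FC 1.62 ± 0.30, adjusted p = 0.0124). Controls had only 2.78 to 12.5 CPM, so the level was highest in LiAM and lowest in Control with no overlap between any of the groups. Here too Control replicate 1 was the highest Control, and the others were at 4.01 CPM or less. Aqp3, the other basolateral water channel, gave 68.2 to 83.3 CPM in LiAM kidneys and 41.9 to 64.2 CPM in Li kidneys without overlap. It did not pass (log2FC 0.60 ± 0.15, adjusted p = 0.118). It did pass without Control replicate 1 (adjusted p = 0.00805) and in the fit of the LiAM and Li libraries alone (adjusted p = 0.019). The adjusted p of Aqp3 was 0.161 without Lithium replicate 1 and up to 0.287 when another library was left out. The osmolyte and water list as a whole had 3 of 13 members higher (Aqp2, Aqp4 and Avpr2), 0 lower and a median log2FC of 0.07.

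Krt18, a keratin of simple epithelia, measured 86.5 to 146 CPM in LiAM kidneys, 50.6 to 84.5 CPM (median 67.5) in Li kidneys and 3.76 to 7.75 CPM in Controls. The separation of LiAM from Li was narrow, 86.5 CPM in the lowest LiAM library beside 84.5 CPM in the highest Li library (log2FC 0.81 ± 0.17, adjusted p = 0.0386). The call was lost when any of 10 libraries was left out (Control replicates 5 and 6, Lithium replicates 2, 3, 5 and 6, and LiAM replicates 2 to 5), with an adjusted p of up to 0.145. Krt19, another keratin of the principal cell list, did not pass (log2FC 0.36 ± 0.24, adjusted p = 0.573). It measured 44.8 to 85.9 CPM in LiAM kidneys, 26.6 to 79.6 CPM in Li kidneys and 2.28 to 6.11 CPM in Controls. Krt8 of the same list did not pass either (log2FC 0.11, adjusted p = 0.683).

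In the list of the distal convoluted tubule and calcium, 2 of 20 tested members were higher and 0 lower (median log2FC 0.24, 17 positive). Other members did not pass, among them Slc8a1 (log2FC 1.70), Trpv5 (0.79), Atp2b1 (0.16), Trpv6 (0.10) and S100g (-0.32). Calb1, the calcium-binding calbindin of the distal convoluted and connecting tubule, measured 269, 118, 148, 168 and 189.8 CPM in LiAM kidneys, against 20.1 to 70.8 CPM (median 57.9) in Li kidneys (log2FC 1.72 ± 0.34, adjusted p = 0.0218). Controls ranged over 142 to 533 CPM, with Control replicate 1 the highest and the others at 219 CPM or less. The call was lost without Lithium replicate 6, LiAM replicate 1 or LiAM replicate 5 (adjusted p up to 0.0726). Atp2b4, a calcium pump of the plasma membrane, gave 102, 93.8, 125, 94.6 and 119 CPM in LiAM kidneys and 49.4 to 67.7 CPM (median 62.5) in Li kidneys (log2FC 0.82 ± 0.12, adjusted p = 0.00268). Controls were at 38.9 to 66.8 CPM, with Control replicate 1 the highest and the others at 47.1 CPM or less. Stc1, the hormone stanniocalcin, which acts on calcium and phosphate balance, stood at 104, 92.8, 171, 269.7 and 294 CPM in LiAM kidneys and 39.8 to 65.7 CPM (median 49) in Li kidneys (log2FC 1.88 ± 0.30, adjusted p = 0.0038), and at 8.58 to 26.9 CPM in Controls. LiAM replicates 4 and 5 were the highest for Stc1, as they were for Sgk1.

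Among the 62 genes the largest rise, by log2FC, was that of Nfasc, the cell adhesion protein neurofascin, with 3.64, 4.22, 4.19, 2.34 and 3.97 CPM in LiAM kidneys, 0.367 to 0.861 CPM (median 0.512) in Li kidneys and 0.150 to 0.470 CPM in Controls (log2FC 2.73 ± 0.25, adjusted p = 2.9e-05). L1cam, an adhesion molecule of neurons that is also made by the collecting duct, measured 31.2 to 37.1 CPM in LiAM kidneys and 10.2 to 19.4 CPM in Li kidneys (log2FC 1.07 ± 0.16, adjusted p = 0.00308). The kinesin motors Kif1a and Kif5a gave 12.4 to 20.3 CPM and 5.0 to 8.79 CPM in LiAM kidneys, against 3.91 to 8.87 CPM and 2.33 to 3.84 CPM in Li kidneys. Their log2FC were 1.15 (adjusted p = 0.00475) and 1.13 (adjusted p = 0.0121). Kif1a was nearly without counts in Controls (0.157 to 0.596 CPM), unlike Kif5a (2.78 to 5.87 CPM). The microtubule-associated Map1a overlapped between groups, with 4.87 to 13.1 CPM in LiAM kidneys and 2.93 to 5.67 CPM in Li kidneys (log2FC 1.11 ± 0.24, adjusted p = 0.037). It lost its call in 12 of the 17 fits that left out 1 library, Lithium replicate 1 included (adjusted p up to 0.148). Rab15, a small GTPase of endosomes, was among the tightest, with 16.2, 16.7, 16.7, 14.2 and 16.7 CPM in LiAM kidneys and 4.53 to 7.34 CPM (median 6.04) in Li kidneys (log2FC 1.40 ± 0.15, adjusted p = 0.000184).

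Transporters and secreted proteins completed the upper end. Slc9a4, a sodium-proton exchanger, measured 24.1, 16.6, 21.4, 22.6 and 28 CPM in LiAM kidneys and 1.78 to 6.17 CPM (median 5.67) in Li kidneys (log2FC 2.13 ± 0.34, adjusted p = 0.00447). Lithium replicate 5 was the lowest at 1.78 CPM and the rest of the group at 5.58 CPM or more. Gdap1, a protein of mitochondrial fission, gave 5.32, 6.62, 6.32, 9.96 and 10.1 CPM in LiAM kidneys, 0.481 to 2.64 CPM (median 2.23) in Li kidneys and 0.0 to 0.903 CPM in Controls (log2FC 1.96 ± 0.35, adjusted p = 0.0107). Fam3d, a secreted cytokine-like protein, gave 2.34 to 3.34 CPM in LiAM kidneys and 0.343 to 1.22 CPM in Li kidneys (log2FC 1.89 ± 0.28, adjusted p = 0.00308). Ccn3, a matricellular protein of the CCN family and the single member of the fibroblast and matrix list that rose, measured 41.8, 39.9, 21.6, 29.6 and 28.7 CPM in LiAM kidneys, 6.17 to 18.3 CPM (median 10.9) in Li kidneys and 0.470 to 1.45 CPM in Controls (log2FC 1.50 ± 0.23, adjusted p = 0.00356). Ptges, which makes prostaglandin E, measured 14.3 to 17.4 CPM in LiAM kidneys and 7.13 to 11 CPM in Li kidneys (log2FC 0.77 ± 0.14, adjusted p = 0.00952), a narrow spread in both. Slc35g2 was low throughout, at 1.29 to 1.96 CPM in LiAM kidneys and 0.275 to 0.686 CPM in Li kidneys (log2FC 1.79 ± 0.31, adjusted p = 0.00715). The beta-defensin Defb11 was lower still, at 0.560 to 0.852 CPM in LiAM kidneys and 0.0687 to 0.306 CPM in Li kidneys (log2FC 1.80 ± 0.36, adjusted p = 0.0248). It lost its call in 7 such fits (without Lithium replicates 2, 3, 5 or 6 or LiAM replicates 2, 4 or 5; adjusted p up to 0.0691).

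The remaining higher genes had log2FC between 0.51 (Tmem47, 52.3 to 59.5 CPM in LiAM kidneys and 33.4 to 43.6 CPM in Li kidneys) and 2.06 (Ccdc187, 0.839 to 1.05 CPM in LiAM kidneys and 0.0687 to 0.297 CPM in Li kidneys). They include the glycosyltransferases Galnt3, Galnt12 and A4galt, the citrullinating enzyme Padi2, the interleukin-12 receptor chain Il12rb2, the proteases Bace2 and Prss23, the kinase Pak6, the actin-capping Tmod1, and Lrrc31, Prr35, Apcdd1l, Fam167a, Mpped2, Slc46a3, Klhl5, Nudt4, Ahnak and LOC361016. Klhl5 varied little within LiAM, from 17.5 to 19.7 CPM, against 9.06 to 12.8 CPM in Li kidneys (log2FC 0.66 ± 0.10, adjusted p = 0.00416). Nudt4 was the most abundant, at 424 to 472 CPM in LiAM kidneys and 226 to 334 CPM in Li kidneys (log2FC 0.57 ± 0.10, adjusted p = 0.00675). Over the 48 genes, Lithium replicate 5 was the lowest Li library in 37, and the median log2 level of a LiAM library over the Li mean ranged from 1.02 to 1.12. These genes were called as higher in the same libraries, so a high level in LiAM follows from the selection.

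Grem1, a secreted antagonist of bone morphogenetic proteins (BMP), measured 194, 243, 170.1, 167 and 199 CPM in LiAM kidneys and 29 to 58.2 CPM (median 44.4) in Li kidneys (log2FC 2.18 ± 0.28, adjusted p = 0.000954). Controls lay at 8.55 to 36.6 CPM, with Control replicate 1 the highest and the others at 15.9 CPM or less. Id1 and Id3 encode inhibitors of basic helix-loop-helix factors and are induced by BMP signalling. Id1 gave 18.2, 23, 20.1, 20.6 and 12.5 CPM in LiAM kidneys and 26.3 to 47.3 CPM (median 39) in Li kidneys (log2FC -1.01 ± 0.18, adjusted p = 0.0107). Id3 gave 29.2, 35.7, 37.5, 29.9 and 22.8 CPM in LiAM kidneys and 51.3 to 82.5 CPM (median 65.3) in Li kidneys (log2FC -1.07 ± 0.17, adjusted p = 0.0038). LiAM replicate 5 was the lowest library for both Id genes, and Controls spanned 21.8 to 42.9 CPM for Id1 and 45.8 to 94.9 CPM for Id3. Both Id genes fell below Control in LiAM (log2FC -0.80, adjusted p = 0.00325 and -1.24, adjusted p = 6.6e-05) and did not pass in Li against Control (log2FC 0.21 and -0.16). The corepressor Tgif1, which acts in TGF-beta signalling, was lower as well, at 10.5 to 11.6 CPM in LiAM kidneys and 12.9 to 17.9 CPM in Li kidneys (log2FC -0.53 ± 0.10, adjusted p = 0.0118). The call was lost without Lithium replicate 1 or 2, where the log2FC was -0.49 and its size under the threshold (adjusted p = 0.0321 and 0.0339).

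**Figure D3:**
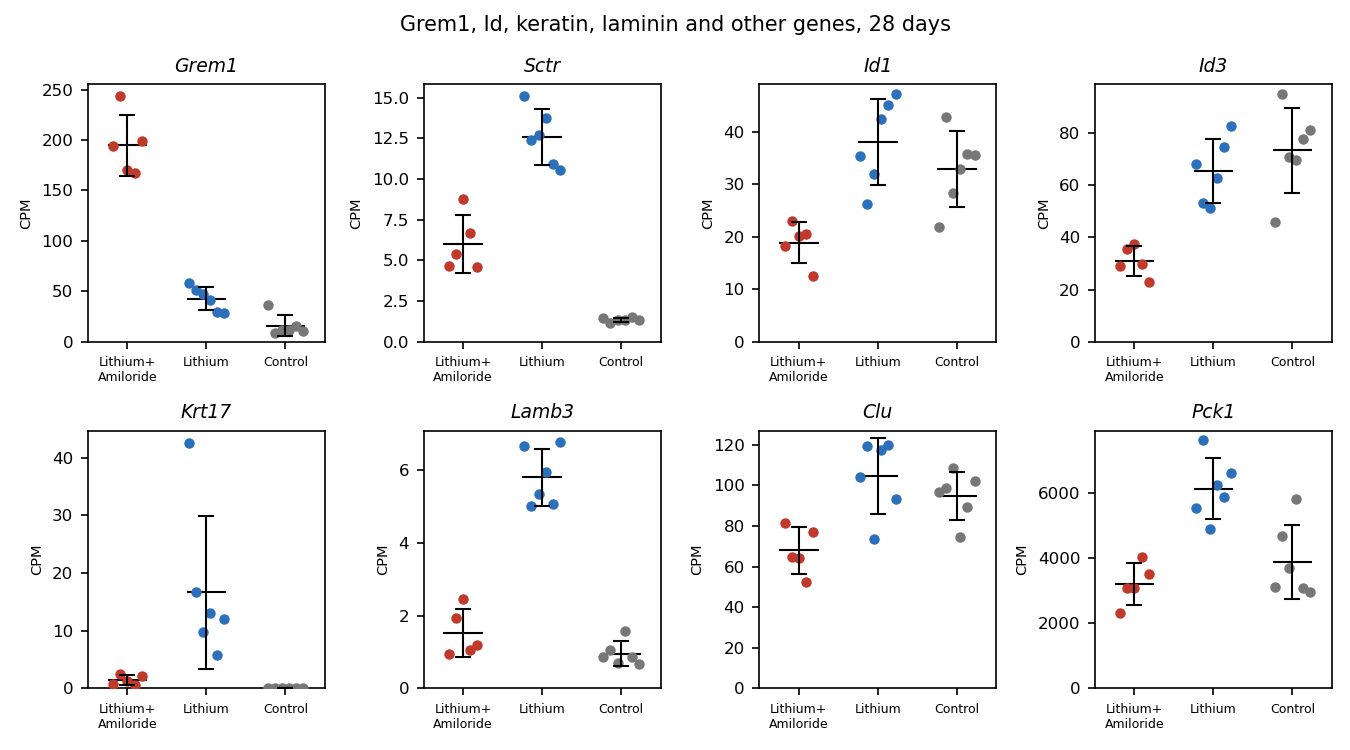
CPM of 8 genes in every 28-day library, with LiAM at the left, Lithium in the middle and Control at the right of each panel (points, libraries; bars, mean ± SD). Grem1 is highest in LiAM, Sctr is highest in Li, Id1 and Id3 are lowest in LiAM, and Krt17 and Lamb3 stand out in Li, with Lithium replicate 1 at 42.5 CPM for Krt17.

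Among the 62 genes the largest fall was that of Krt17, a keratin of basal and injured epithelium. It measured 0.784, 2.4, 1.23, 0.532 and 2.18 CPM in LiAM kidneys and 5.7 to 42.5 CPM (median 12.5) in Li kidneys (log2FC -3.54 ± 0.55, adjusted p = 0.00911), and was listed at 0 in all 6 Controls. Lithium replicate 1 was the highest, and without it the log2FC was -3.01, adjusted p = 0.005. Lamb3, a chain of the basement membrane laminin and the single member of that list that fell, measured 0.952, 1.93, 2.46, 1.06 and 1.2 CPM in LiAM kidneys, 5.01 to 6.77 CPM (median 5.64) in Li kidneys and 0.657 to 1.58 CPM in Controls (log2FC -1.93 ± 0.23, adjusted p = 0.000776). The membrane mucin Muc4 gave 0.160 to 0.335 CPM in LiAM kidneys and 0.618 to 3.85 CPM (median 1.8) in Li kidneys (log2FC -3.15 ± 0.47, adjusted p = 0.00308). Muc4 failed the filter on low counts, so that it was not tested, when Lithium replicate 1, 2, 3, 4 or 6 was left out. Krt17 and Lamb3 kept their calls in all 17 fits that left out 1 library.

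Sctr, the secretin receptor, measured 4.65, 5.39, 8.78, 6.66 and 4.57 CPM in LiAM kidneys and 10.6 to 15.1 CPM (median 12.5) in Li kidneys (log2FC -1.06 ± 0.15, adjusted p = 0.00261), and 1.13 to 1.5 CPM in Controls. Epha2, an ephrin receptor of epithelia, was at 19.4 to 25.7 CPM in LiAM kidneys and 32.5 to 39.8 CPM in Li kidneys (log2FC -0.56 ± 0.08, adjusted p = 0.00308). This call was lost without LiAM replicate 1, where the log2FC was -0.50, just under the threshold in size (adjusted p = 0.00940). Fga, the alpha chain of fibrinogen, was at 10.8 to 16.6 CPM in LiAM kidneys and 16.6 to 27.3 CPM in Li kidneys (log2FC -0.72 ± 0.14, adjusted p = 0.0193). It was lost without Lithium replicate 6 or LiAM replicates 1, 3 or 4 (adjusted p up to 0.0681). Mt3, a metallothionein, and Wfdc10, a whey acidic protein domain protein, were low in both groups. Mt3 gave 0.106 to 0.727 CPM in LiAM kidneys and 0.755 to 1.4 CPM in Li kidneys (log2FC -1.78 ± 0.37, adjusted p = 0.0341). Wfdc10 gave 0.410 to 0.950 CPM in LiAM kidneys and 1.22 to 2.86 CPM in Li kidneys (log2FC -1.32 ± 0.28, adjusted p = 0.0341). Each lost its call in 9 of the 17 fits, Lithium replicate 1 included.

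Tubular injury genes had 1 of 19 tested members higher (Krt18) and 1 lower, with a median log2FC of 0.13. The lower one was Clu, the secreted chaperone clusterin, at 81.6, 64.9, 64.4, 52.3 and 77.1 CPM in LiAM kidneys and 73.3 to 120.0 CPM (median 111) in Li kidneys, overlapping at Lithium replicate 3 (log2FC -0.62 ± 0.13, adjusted p = 0.0399). Its call was lost in 12 of the 17 fits, among them the one without Lithium replicate 1 (log2FC -0.62, adjusted p = 0.0715). Havcr1, the injury marker KIM-1, varied widely among Li kidneys, from 0.245 CPM in replicate 1 to 5.56 CPM in replicate 5, and lay at 0.336 to 0.644 CPM in LiAM kidneys and 0.286 to 0.783 CPM in Controls. It did not pass with all libraries (log2FC -2.24 ± 0.55, adjusted p = 0.0998) and passed without Lithium replicate 1 (log2FC -2.48, adjusted p = 0.0131). Lcn2, another injury marker, gave 1.85 to 3.19 CPM in LiAM kidneys and 2.97 to 4.24 CPM in Li kidneys (log2FC -0.54 ± 0.17, adjusted p = 0.223). The cell cycle inhibitor Cdkn1a gave 57.9 to 95.7 CPM in LiAM kidneys, 44.1 to 82.8 CPM in Li kidneys and 4.93 to 9.38 CPM in Controls, with no call (log2FC 0.49 ± 0.16, adjusted p = 0.262).

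Intercalated cell genes had 0 of 18 tested members higher and 1 lower, and 17 of the 18 had a negative log2FC, with a median of -0.27. Over the 8816 tested genes with a symbol, 4163 had a positive log2FC. The mitochondrially encoded and red blood cell lists, given below, were negative throughout, so such a run of signs is not particular to intercalated cells. The gene that fell was Atp6v1g3, a subunit of the proton pump that intercalated cells use to secrete acid, with 64.1, 76.9, 62.7, 90.7 and 68 CPM in LiAM kidneys and 105 to 207 CPM (median 187) in Li kidneys (log2FC -1.21 ± 0.19, adjusted p = 0.0038). Controls spanned 51.2 to 97.3 CPM, close to the LiAM range. Foxi1, the transcription factor that defines these cells, measured 23.5, 25.6, 23.8, 37.8 and 30.3 CPM in LiAM kidneys and 30.6 to 73.5 CPM (median 45) in Li kidneys, overlapping (log2FC -0.76 ± 0.21, adjusted p = 0.15). Slc4a1, the anion exchanger of acid-secreting cells, measured 92.2 to 164 CPM in LiAM kidneys and 62.3 to 184 CPM in Li kidneys (log2FC -0.19 ± 0.28, adjusted p = 0.801). The summed list came to 1405 to 1727 CPM in LiAM libraries, 1301 to 2217 CPM in Li libraries and 1117 to 1803 CPM in Controls.

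Pck1, the enzyme phosphoenolpyruvate carboxykinase of gluconeogenesis in the proximal tubule, was the most abundant gene among the 62. It measured 2305, 3094, 3103, 4053 and 3523 CPM in LiAM kidneys, 4909 to 7653 CPM (median 6077) in Li kidneys and 2966 to 5819 CPM in Controls (log2FC -0.93 ± 0.18, adjusted p = 0.0217). No LiAM library was above any Li library. The call was lost without Lithium replicates 2 or 6 or LiAM replicates 1, 2 or 3 (adjusted p up to 0.0681). Pck1 was the single call in the proximal tubule list (1 of 23 tested lower, 0 higher, median log2FC -0.11) and in the nutrient and fasting list (1 of 19 lower, 0 higher, median -0.17). Angptl4, a fasting-induced inhibitor of lipoprotein lipase, gave 0.979 to 2.69 CPM in LiAM kidneys and 1.49 to 5.99 CPM in Li kidneys (log2FC -1.19 ± 0.34, adjusted p = 0.176). The groups overlap at Lithium replicates 4 and 6, and without replicate 4 it passed (adjusted p = 0.0412).

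No member passed in the lists of inflammation, immune cells and the interstitium other than those named. The T cell list had 0 of 13 tested members called (median log2FC -0.04), macrophage and dendritic cells 0 of 14 (0.11), NF-kB and inflammation 0 of 21 (-0.07), and immediate early genes 0 of 21 (-0.08). Complement had 0 of 9 called (-0.20), metalloproteinases 0 of 9 (-0.10) and pericytes and smooth muscle 0 of 10 (-0.26). Fibroblast and matrix genes had 1 of 28 higher and 1 lower (-0.14). The T cell receptor chains Cd3d and Cd3e gave 0.326 to 0.839 CPM and 0.784 to 2.4 CPM in LiAM kidneys, against 0.344 to 1.01 CPM and 0.975 to 2.75 CPM in Li kidneys (adjusted p = 0.801 and 0.704). Nfkb2 and Rela, subunits of NF-kB, gave 26.9 to 33.7 CPM and 38.5 to 43.6 CPM in LiAM kidneys and 28.7 to 32.7 CPM and 40.2 to 46.7 CPM in Li kidneys, with log2FC of -0.05 for both (SE 0.06 each). Ccn2, a matricellular target of TGF-beta, gave 61 to 89.4 CPM in LiAM kidneys and 58.1 to 126 CPM in Li kidneys (log2FC -0.18 ± 0.23, adjusted p = 0.768). Tgfb1 itself gave 12.3 to 16.9 CPM in LiAM kidneys and 13.5 to 16.8 CPM in Li kidneys (log2FC -0.09 ± 0.13, adjusted p = 0.798). The pericyte receptor Pdgfrb gave 50.6 to 91.3 CPM in LiAM kidneys and 74.5 to 115 CPM in Li kidneys (log2FC -0.37 ± 0.17, adjusted p = 0.434). Gsk3b, the kinase that lithium inhibits, gave 26.7 to 32.6 CPM in LiAM kidneys and 23.5 to 29.7 CPM in Li kidneys (log2FC 0.18 ± 0.09, adjusted p = 0.441). Also short of the thresholds were Notch1 (log2FC -0.06), its ligand Jag1 (-0.44), the oncostatin M receptor Osmr (-0.07), Socs3 (-0.46) and Myc (-0.30). A gene short of the thresholds is not shown to be equal in both groups.

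**Figure D4:**
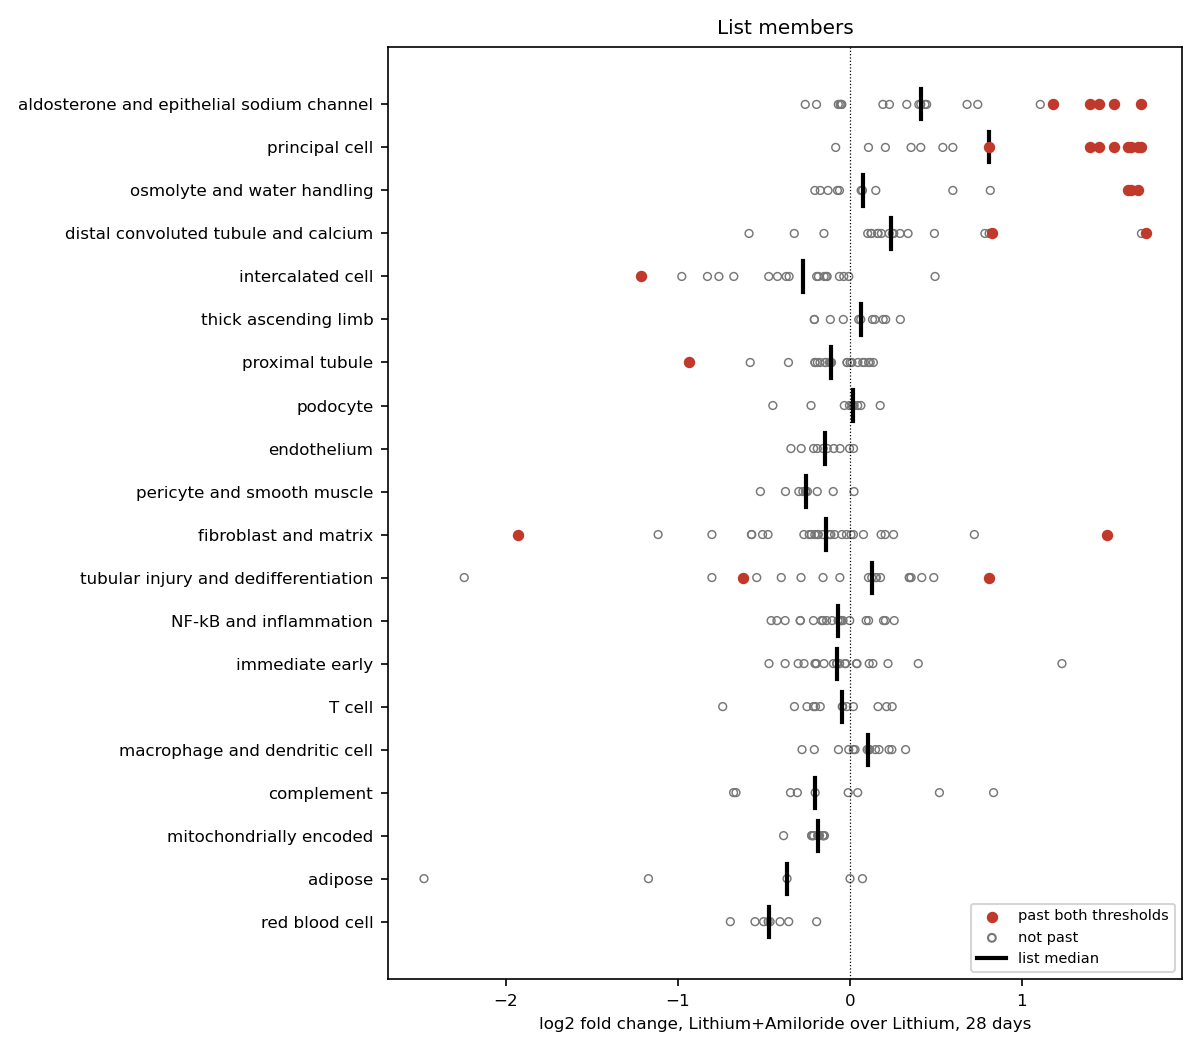
Log2FC of LiAM over Li at 28 days for the tested members of 20 lists, a line per list (filled red points, genes past both thresholds; open points, the others; black tick, list median). The filled points sit at the right in the aldosterone, principal cell, water and calcium lists, and the T cell, macrophage and NF-kB lists have none.

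Lists of markers of other tissues and cell types held no call, where the share over all genes is itself under 1%. Of the mitochondrially encoded genes 0 of 13 were called, though all 13 had a negative log2FC (median -0.18), and of the red blood cell genes 0 of 8 were called, with all 8 negative (median -0.47). The thick ascending limb (0 of 11), podocyte (0 of 10), endothelial (0 of 10), adipose (0 of 5), adrenal cortex (0 of 2) and skeletal muscle (0 of 2) lists held no call either. Of the endothelial list 9 of 10 members had a negative log2FC (median -0.14), as did 9 of 10 of the pericyte and smooth muscle list. The summed proximal tubule level given above was lower in every LiAM library than in any Li library. That sum includes the abundant called gene Pck1 (log2FC -0.93), and the median log2FC of the proximal tubule list was -0.11. The summed adipose level averaged 101 ± 14.9 CPM in LiAM libraries (SD, n = 5) and 131 ± 104 CPM in Li libraries (SD, n = 6), with a difference of -30.0 CPM (exact permutation test, two-sided, p = 0.916). This turned to 12.0 CPM without Lithium replicate 1 (exact p = 0.286). The part of any of these in the results above was not tested, beyond the values without Lithium replicate 1.

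Set against Control, the genes fell into several arrangements. These comparisons share libraries with the one above, so each gene's values are given side by side and no relation between them is tested. LiAM against Control had 2349 genes past both thresholds (16.6%; 9.82% higher and 6.79% lower). Li against Control had 1283 (9.07%; 5.49% higher and 3.59% lower). Of the 48 genes higher in LiAM than in Li, 16 were also higher in LiAM than in Control and in Li than in Control. Examples are Aqp4 (log2FC over Control 5.50 in LiAM and 3.88 in Li), Ccn3 (5.02 and 3.52), Kif1a (5.13 and 3.98), Krt18 (4.40 and 3.59), Grem1 (3.59 and 1.41) and Stc1 (3.49 and 1.61). Another 9 were lower in Li than in Control. Among these 9, Calb1, Defb11, Hsd11b2, Scnn1b and Tmod1 did not pass in LiAM against Control, Scnn1g and Prr35 were higher there, and Aqp2 and Klk1 were lower. For Hsd11b2 the log2FC over Control was 0.21 in LiAM and -1.24 in Li, for Scnn1b 0.30 and -1.23, for Calb1 -0.43 and -2.15, and for Klk1 -1.41 and -2.59. The other 23 did not pass in Li against Control.

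Of the 14 genes lower in LiAM than in Li, 9 were higher in Li than in Control and 0 were lower. Of those 9, Atp6v1g3, Fga, Lamb3, Mt3, Muc4, Pck1 and Wfdc10 did not pass in LiAM against Control, and Sctr (log2FC over Control 2.15 in LiAM and 3.21 in Li) and Krt17 stayed higher. For Lamb3 the log2FC over Control was 0.68 in LiAM and 2.60 in Li, for Atp6v1g3 -0.07 and 1.14, and for Pck1 -0.28 and 0.66. A gene that did not pass against Control is not shown to equal it.

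The same comparison at 14 days used 5 LiAM and 6 Li libraries from other rats, with LiAM replicate 2 left out, a choice made with earlier results of these data known. That library had 23.4% of its counts from mitochondrially encoded genes, against 14.7 to 18.9% in the other LiAM libraries of that time. At 14 days 311 of 14179 genes passed (2.19%), 112 higher in LiAM (0.79%) and 199 lower (1.4%). Of the 62 genes called at 28 days, 61 were tested at 14 days, all 61 had the same sign and 49 passed in the same direction, which is 79.0% of the calls at 28 days and 15.8% of those at 14 days. With LiAM replicate 2 kept, 299 genes passed at 14 days (82 higher, 217 lower), and 43 of the 62 passed in the same direction. Aqp2 had a log2FC of 1.68 at 28 days and 2.42 at 14 days, Calb1 of 1.72 and 2.50, Scnn1b of 1.53 and 1.69, and Scnn1g of 1.69 and 1.73. Krt17 had -3.54 and -3.68, Lamb3 -1.93 and -2.52, Id1 -1.01 and -1.24, and Grem1 2.18 and 1.54. Kif1a (1.15 and 0.34) and Krt18 (0.81 and 0.36) passed at 28 days and not at 14 days, and their differences between times were not past the threshold (adjusted p = 0.492 and 0.676).

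**Figure D5:**
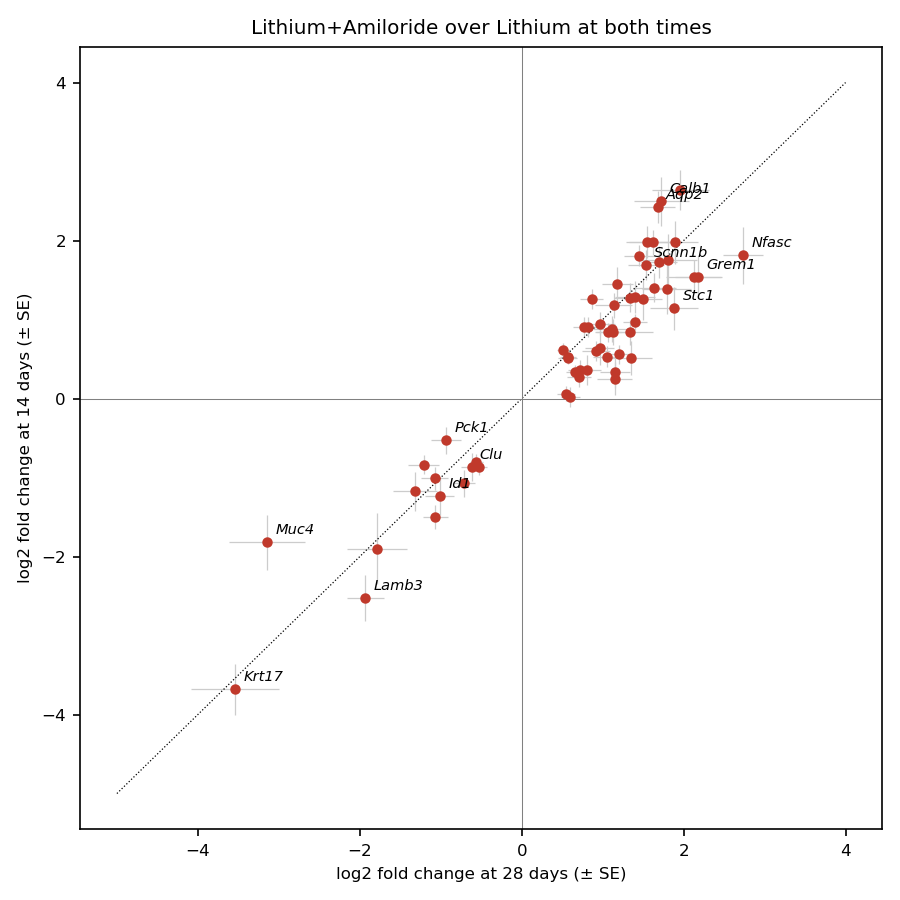
Log2FC of LiAM over Li at 28 days (horizontal axis) and 14 days (vertical axis) for 60 of the 61 genes called at 28 days and tested at both times, with SE as grey lines and equal values on the dotted line. All 60 points lie in the lower left or upper right quadrant, and Krt17 and Lamb3 are low at both times.

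The difference between the times was tested directly, in 1 fit of 34 libraries. Of 14525 genes, 0 (0%) passed both thresholds with edgeR, 1237 (8.52%) had an unadjusted p below 0.05, and DESeq2 gave 1 gene, Pmaip1. The 5 genes with the lowest p were Pmaip1 (a p53 target; log2FC 0.08 at 28 days and -1.10 at 14 days), Egr2 (-0.38 and -2.71), Gatm (-0.14 and 1.37), Itgb7 (0.17 and -1.61) and Kmo (-0.31 and 0.11), each with an adjusted p of 0.27 or 0.269 for the difference. Without Lithium replicate 1 the difference passed for 1 gene, the complement gene C4b (1.68 on the log2 scale, adjusted p = 0.0317), whose reads can be shared with a near-identical copy. At 14 days, where 2.17% of the genes with a symbol were lower in LiAM, 8 of the lists without calls at 28 days had lower members and none of them a higher one. These were 8 of 21 immediate early genes, 4 of 21 of the NF-kB list, 3 of 9 each of complement and metalloproteinases, 2 of 13 each of the T cell and the Notch and Wnt lists, 2 of 14 macrophage and dendritic cell genes and 1 of 15 p53 genes. The median log2FC of the T cell list was -0.63 at 14 days and -0.04 at 28 days. Lcn2 (-0.54 at 28 days and -1.56 at 14 days) and Socs3 (-0.46 and -1.37) passed only at the earlier time, and neither differed between times at an adjusted p below 0.05 (0.336 and 0.492).

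Of the 62 calls, 38 held in all 17 fits that left out 1 library, and those fits gave 44 to 104 calls. Besides the genes named above, LOC361016 (adjusted p up to 0.122), Galnt3 (0.098), Pak6 (0.116), Apcdd1l (0.0761), Prss23 (0.0997), Ahnak (0.0997), Galnt12 (0.0861), Il12rb2 (0.0585), Tmod1 (0.057), Slc46a3 (0.0524) and Tmem47 (log2FC down to 0.47) lost theirs in at least 1 of them, LOC361016 and Pak6 also without Lithium replicate 1. Gene symbols were on hand for 62.3% of the genes tested and for 400 of the 503 symbols on the lists, and all 62 called genes have one.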

How the data were processed

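Single-end reads of stranded mRNA libraries were made and aligned by the authors with HISAT2 (version 2.1.0 in the submitters' processing notes) to the rat genome Rnor_6.0, and the deposited values are whole-number read counts per gene from featureCounts (version 2.0.0 in the same notes), not normalized; the strand setting is not given in the sources used here. The authors' deposited result tables, whose other columns hold their fold changes and p-values, were used only for gene symbols.

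Genes with too few counts were removed (filterByExpr), leaving 14140, and all 17 libraries at 28 days were fitted with edgeR 4.0.16 (R 4.3.3) after TMM scaling, with the quasi-likelihood test and Benjamini-Hochberg adjustment. A gene was called at an adjusted p below 0.05 and a log2 fold change of 0.5 or more in size. Standard errors are the log2 fold change divided by the root of F. CPM are counts per 1000000 of the TMM-scaled library. The times were compared by an interaction in 34 libraries. Alternatives were DESeq2 1.42.0, RLE scaling, no filter, LiAM and Li alone, a replicate block, no mitochondrial genes and leaving out each library. The p-values of the fits weigh a difference between groups against the spread of samples within groups. At 28 days that spread was estimated over all 17 libraries, Controls included. The fit, tested on simulated data, is limited by depth (14779709 to 17554304 counts per library) and 5 to 6 replicates.

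Named are the 10 genes of largest change in each direction among those called with at least 1 CPM in a group mean, every called list member, a panel of 35 genes and the 5 lowest p-values of the difference between times; the other called genes were added after their values were seen. Of these genes, 2 are not reported here. Members, lists and panel were chosen with earlier results of these data known. The 6-month samples were not analysed here.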

Additional observations from a re-analysis of the deposited data

Results flagged for a closer look

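Among 5 or 6 libraries of a group, 1 library lay far from the rest by Dixon's criterion in 9 of 180 gene and group pairs checked (90 genes) and in both adipose measures; chance gives about 1 in 20. The LiAM values were 0.727 CPM for Mt3 in LiAM replicate 3 (the other LiAM libraries 0.106 to 0.272 CPM), 57.9 CPM for Cdkn1a in LiAM replicate 1 (86.4 CPM or more in the others), 12.0 CPM for Osmr in LiAM replicate 3 (6.89 to 8.36 CPM), 54.6 CPM for Galnt3 in LiAM replicate 4 (26.5 to 30.8 CPM) and 14.2 CPM for Rab15 in the same library (16.2 to 16.7 CPM). Lithium replicate 1 had an adipose sum of 341 CPM, Fabp4 at 93.6 CPM and Krt17 at 42.5 CPM (16.6 CPM or less in the other Li libraries). Further Li values were 1.78 CPM for Slc9a4 and 5.84 CPM for Padi2 (8.26 to 8.91 CPM in the others) in Lithium replicate 5 and 71.5 CPM for Scnn1a in Lithium replicate 4 (47.2 CPM or less in the others). The cause of these values was not tested.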

How the results depend on the processing

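The calls between LiAM and Li numbered 136 with DESeq2 (99 higher, 37 lower), all 62 among them, and 76 in the fit of the 11 LiAM and Li libraries alone (54 shared). Leaving out 1 library gave 44 to 104 calls, 36 to 86 higher and 8 to 18 lower, the lowest without Lithium replicate 6 and the highest without Control replicate 1; without Control replicate 1 and Lithium replicate 1 together there were 76 higher. The cause of these changes was not tested. With a replicate block there were 50 calls (42 higher, 8 lower, 49 shared). No label says that the numbers pair the rats. Same-numbered LiAM and Li libraries correlated over 0.1 in 1 of 5 pairs (-0.16 to 0.24), and 1 LiAM library correlated best with its own number. These 5 pairs are too few to exclude that rats of the same number share something. For the difference between times, DESeq2 gave 1 gene and leaving out 1 library 0 to 1. The adipose difference ranged from -44.0 to 12.0 CPM over the left-out libraries. Over the same left-out libraries, the log2FC of 3 genes short of the thresholds changed sign: Osmr (-0.22 to 0.052), Pmaip1 (-0.025 to 0.17) and Itgb7 (-0.084 to 0.30). RLE scaling, no filter and no mitochondrial genes gave 62 to 64 calls. Over the named genes and alternatives, 1966 values kept direction and side of the threshold, 164 lost the call, 14 gained it and 5 changed sign. Depth limits genes under about 1 CPM, which is 12.8 to 18.8 counts.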

Other observations

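Sgk1 was highest in the libraries numbered 4 and 5 of both lithium groups. It measured 395 and 337 CPM there in LiAM kidneys (226 CPM or less in the others), and 215 and 259 CPM in Li kidneys (127 CPM or less in the others). Stc1 was also highest in LiAM replicates 4 and 5. No label says what these numbers share.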
